A study of Mus musculus with 23 samples.

Results

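The lacrimal gland (LG) and the harderian gland (HG) of the adult mouse were compared on 5 of the 23 microarrays of the series, 2 of whole LG and 3 of whole HG. Samples were chosen by their titles, and all 5 came from mice of background strain B6/CL at 7 weeks of age. The other 18 arrays held epithelium and mesenchyme separated from LG, HG and eyelid at embryonic day 16.5 (E16.5), also of strain B6/CL, and 6 of them, 3 of LG epithelium and 3 of HG epithelium, were used for a comparison with the embryo. Total RNA was labelled with Cy3 and hybridised to 1-colour Agilent mouse arrays. The labels give no sex and do not say whether the arrays of a group came from separate animals. The p-values measure the spread between arrays within groups, which may be technical. That spread was pooled over all 8 groups of the series, so it comes largely from the 18 embryonic arrays. Whole glands hold every cell type of the tissue, so fewer cells of a type and less RNA per cell cannot be told apart.

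The LG is the main source of the aqueous layer of the tear film. Its acinar cells make large amounts of secreted protein in the endoplasmic reticulum (ER), store it in granules and release it with water and salts after nerve stimulation. The HG, which lies behind the eyeball in rodents, releases lipid from its acinar cells; in rodents it is known for ether-linked acylglycerols and for the storage of porphyrin.

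Levels below are log2 of the probe signal minus the array's own 75th percentile, so that 0 is the signal which 75% of probes on that array do not exceed, and differences are LG minus HG. The LG arrays were dimmer. Their 75th percentile lay at 194 and 139 intensity units, against 313, 462 and 366 on the HG arrays, and 50.3% and 42.4% of their spots were well above background, against 52.4%, 58.6% and 49.4%. The 20 brightest probes took 8.14% and 9.16% of all signal on the LG arrays and at most 4.60% on the other arrays of the series. Arrays of the same gland correlated at 0.959 to 0.975 across genes, and arrays of different glands at 0.839 to 0.861.

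Several transcripts followed single arrays. In LG, 28 genes differed over 16-fold between the arrays, and 27 of these were higher on replicate 1, led by salivary proteins such as Bpifa2, at 10.60 on replicate 1 and -2.81 on replicate 2 (these genes were chosen after their values were seen). The salivary marker list summed to 4412 and 1963 times the 75th percentile on LG replicates 1 and 2, against 29.3, 37.1 and 41.8 on the HG arrays. The list includes Car6 and Bhlha15, which were high on both LG arrays. Its sum on LG replicate 2 is therefore not a measure of transcripts such as Bpifa2. HG replicate 1 held more skeletal muscle RNA, with a marker sum of 214 against 21.6 and 5.81 on replicates 2 and 3, while the LG arrays had 8.69 and 7.78. The 15 genes with the largest positive difference had median levels of 8.94 and 9.58 on the LG arrays, against -5.03, -1.93 and -0.23 on HG replicates 1, 2 and 3, so LG transcripts were most visible on HG replicate 3. Transcripts of the Y-linked genes Ddx3y and Eif2s3y were above background on 0 of the 5 adult arrays. Results that rest on one of these arrays are given with and without it.

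Among 16323 genes tested with limma, 3659 were higher in LG (22.4%) and 5421 were lower (33.2%), so 55.6% of genes were called at an adjusted p below 0.05 (Benjamini-Hochberg). The median difference of all genes was -0.13. At least 2-fold differences were called for 2553 higher genes (15.6%) and 3589 lower genes (22%), and at least 16-fold differences for 299 and 395. LG lay above every HG array for 3960 genes (24.3%) and below every HG array for 5432 genes (33.3%). Restricting the count to 11367 genes whose probe was well above background on all 5 arrays left 2479 higher and 4089 lower. A further 1287 genes were not well above background in either adult gland by any probe. Of those, 546 were called higher in LG and 9 lower, with a median difference of 0.95. Such genes are not used singly as results below, but they stay in the counts of lists and of all genes. They include 1 higher member each of fluid secretion, fatty acid synthesis, hormone receptors and the melatonin and clock genes. They also include 2 higher cell cycle genes, 5 gland transcription factors, 6 growth signals, 4 neural markers and 1 conjunctiva and cornea marker. Of genes named below, Aqp3, Bpifa6, Far2, Gata6, Mogat1, Muc1, Pck1, S100b and Wnt5a were above background on 1 of the 2 LG arrays, the probe used for Aqp11 on 0 of the 2, and Gm12886, Olfr1348 and Spry2 on 1 of the 3 HG arrays. Cpa3, Cma1, Fgg, Foxa1, Fzd10, Gm12888, Gpat3, Lcn11, Prom2 and Soat1 were above background on 2 of the 3 HG arrays. Their fitted differences include levels below background, so the size of these differences is uncertain.

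**Figure D1:**
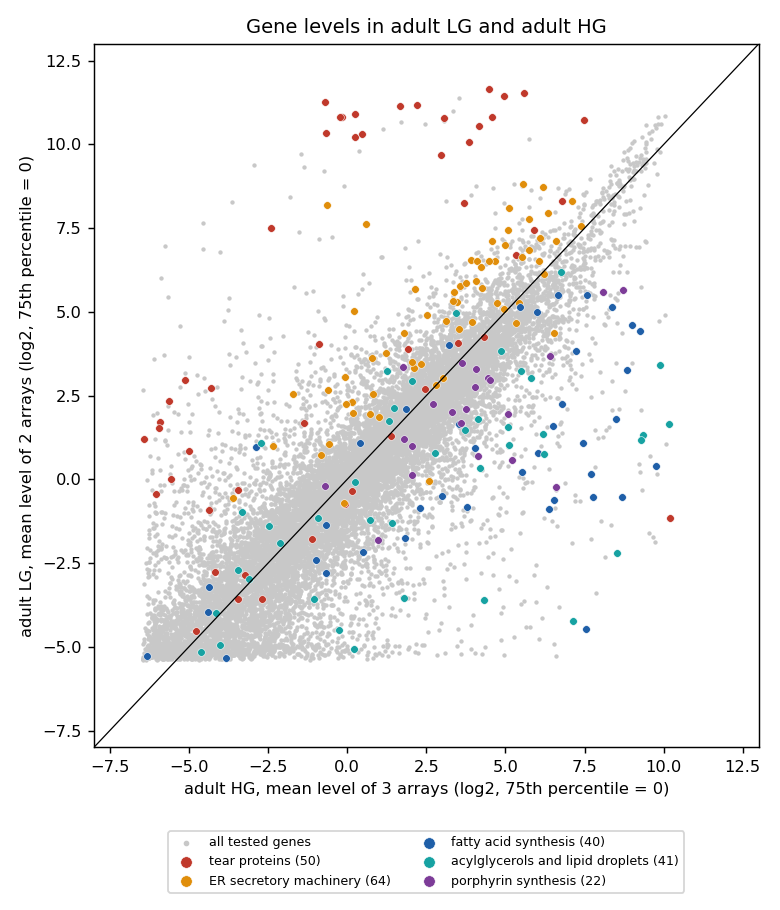
Mean level of each gene in adult LG (vertical axis, 2 arrays) against adult HG (horizontal axis, 3 arrays), both as log2 with the array's 75th percentile at 0; the diagonal marks equal levels. Tear proteins lie mostly above the diagonal with LG levels up to 11.66, and genes of fatty acid synthesis and lipid droplets lie mostly below it with HG levels up to 10.16.

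Secreted tear proteins were higher in LG than in HG. Of 50 tear protein genes tested, 37 were higher in LG, against a background of 22.4% of all genes, and 2 were lower; their median difference was 5.74. The list summed to 32801 and 41588 times the 75th percentile on the LG arrays, against 1741, 1690 and 2693 on the HG arrays. Salivary transcripts belong to it, and without LG replicate 1 the count of higher members was 28. The count of lower members was 1 without HG replicate 1 or HG replicate 2 and 5 without HG replicate 3. With probes above background on all 5 arrays, 24 members were higher and 0 lower; 30 members had such a probe. Not above background were 7 members on any HG array and 2 on any LG array.

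Lcn11, a lipocalin, a family of small carriers of hydrophobic molecules, had levels of 11.10 and 11.46 in LG, against -4.86, 0.93 and 1.87 in HG. Both LG arrays lay above every HG array, and the difference was 11.97 ± 1.35 (SE; limma, adjusted p = 5.74e-07). Lactoperoxidase, Lpo, an antimicrobial enzyme of tears and milk, had 10.11 and 10.56 in LG, against -1.98, -0.17 and 0.15 in HG. Lpo was 2051-fold higher in LG, with an SE of 0.42 on the log2 scale (limma, adjusted p = 2.84e-13). The secreted nuclease gene Dnase1 had 10.48 and 11.17 in LG, against -3.10, 0.14 and 2.42 in HG. Lactotransferrin, Ltf, which binds iron, had 8.17 and 8.30 in LG, against 2.72, 4.34 and 4.03 in HG, a 23.3-fold difference (limma, adjusted p = 4.48e-07). The groups did not overlap for any of these 4 genes.

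Car6, the secreted carbonic anhydrase, stood at 9.99 and 10.61 in LG, against -3.15, 1.65 and 2.94 in HG. Pip, the prolactin-induced protein, had 10.997 and 11.388 in LG, against -0.72, 3.30 and 4.01 in HG (511-fold; SE of the log2 difference 1.75; limma, adjusted p = 0.000285). For both genes HG replicate 1 was the lowest array by at least 4 log2 units below replicates 2 and 3. Pigr, the receptor that carries polymeric immunoglobulin across epithelium, differed less, with 7.86 and 8.75 in LG, against 6.17, 6.78 and 7.43 in HG. Its difference of 1.51 ± 0.46 (limma, adjusted p = 0.00917) became 1.07 without LG replicate 2, at an adjusted p of 0.13. Lyz2, a lysozyme gene that is also expressed by macrophages, did not pass the test (difference -0.10, adjusted p = 0.913).

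The secretoglobins, small secreted dimeric proteins, included Scgb1b2, Scgb2b2, Scgb2b20 and Scgb1b7, with LG levels of 11.13 or more on both arrays. Scgb1b2 had 11.47 and 11.85 in LG, against 0.74, 5.94 and 6.77 in HG. The LG arrays lay above all HG arrays, but HG replicate 1 was over 5 log2 units below the other HG arrays, and the difference of 7.17 ± 2.40 (limma, adjusted p = 0.0167) was 5.30 at an adjusted p of 0.078 without HG replicate 1. The call was also lost without LG replicate 1 (adjusted p = 0.063) and without LG replicate 2 (adjusted p = 0.075). Scgb2b20 had 11.21 and 11.68 in LG, against 2.83, 5.88 and 6.15 in HG (difference 6.49 ± 1.29; limma, adjusted p = 0.000347). Secretoglobin, major urinary protein and Dcpp genes have near-identical copies, so which copy a probe reports is uncertain. Of the major urinary proteins, which are lipocalins, Mup4 differed by 10.67 ± 1.12 and Mup20 by 10.69 ± 1.03 (limma, adjusted p = 2.47e-07 and 7.43e-08).

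Several salivary proteins rested on LG replicate 1. Amy1, salivary amylase, had 9.26 and -1.17 in LG, against 0.30, -1.39 and -1.57 in HG. Dcpp3, of a family named for secretion by salivary demilune cells, had 7.50 and -5.09 in LG, against -6.33, -6.65 and -6.25 in HG. Smr3a, a submaxillary gland protein, had 8.16 and -2.73 in LG, against -4.18, -6.54 and -2.19 in HG. All 3 were called higher, and without LG replicate 1 their differences were -0.28, 1.32 and 1.58, at adjusted p of 0.75, 0.067 and 0.3 (limma). Of 19 salivary markers tested, 12 were higher and 1 lower with both LG arrays, and 6 were higher and 4 lower without LG replicate 1. Car6 and Bhlha15 of that list had like levels on both LG arrays.

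The opposite secreted protein was Bpifa6, of the family of BPI-fold proteins. It had 2.49 and -4.80 in LG, against 10.36, 9.65 and 10.55 in HG, a difference of -11.35 ± 1.94 (limma, adjusted p = 7.62e-05). Both LG arrays lay below every HG array, and LG replicate 1 was again the higher of the LG arrays. BC048679, to which no role is given here, had 2.87 and -0.76 in LG, against 10.30, 9.56 and 10.37 in HG.

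**Figure D2:**
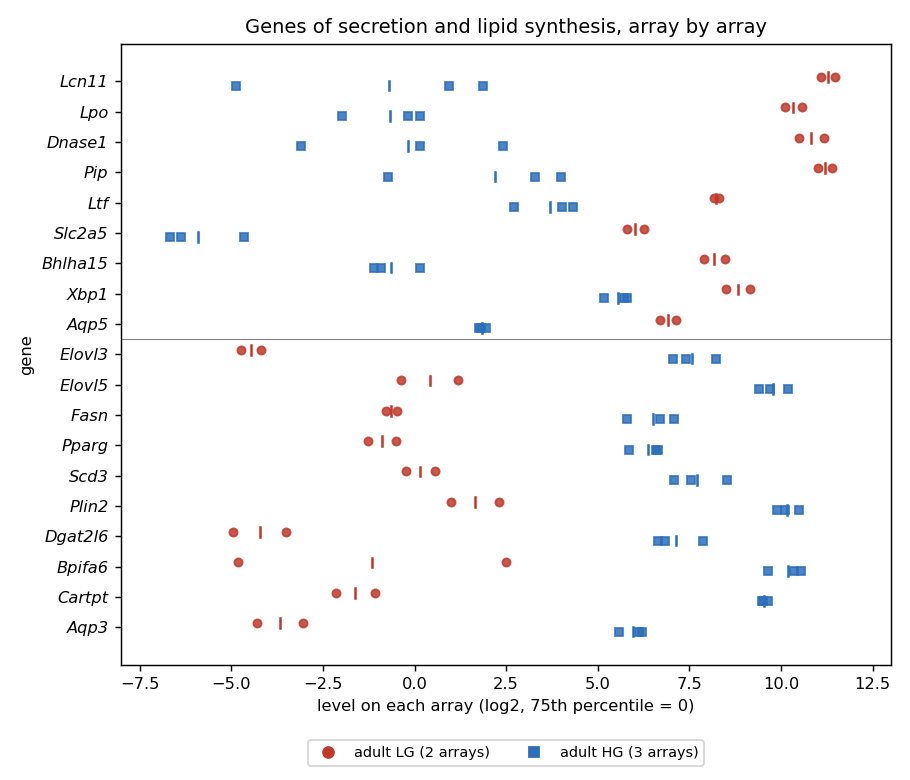
Level on each array (log2, 75th percentile at 0) of 9 genes higher in LG (upper rows) and 10 genes lower in LG (lower rows); circles are the 2 adult LG arrays, squares the 3 adult HG arrays, and short vertical bars the group means. No gene overlaps between the glands, and the HG arrays spread widely for Lcn11 (-4.86 to 1.87) and Dnase1 (-3.10 to 2.42) but not for Xbp1 (5.18 to 5.80).

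Genes outside the tear protein list were among the largest positive differences. Gm12887, Gm12888 and Gm12886, which lie on the same chromosome, differed by 12.74 ± 0.31, 12.33 ± 1.01 and 12.21 ± 0.60. Gm12887 had 7.03 and 6.93 in LG, against -6.27, -4.84 and -6.19 in HG, where it was not well above background, so that LG was at least 2180-fold higher (bounds of this kind set the LG mean against the lowest measurable signal of the dimmer arrays). Slc2a5, the fructose transporter, had 5.79 and 6.26 in LG, against -6.37, -6.67 and -4.65 in HG, at least 1127-fold higher (limma, adjusted p = 3.38e-14). Fgg, the fibrinogen gamma chain, differed by 11.95 ± 0.91. Olfr1348, annotated as an olfactory receptor gene, had 7.02 and 6.76 in LG, against -4.39, -3.56 and -5.74 in HG.

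The machinery that folds and exports secreted protein was higher in LG. Of 64 ER genes tested, 53 were higher and 4 lower, with a median difference of 1.84; 52 were higher on probes above background on all 5 arrays, and 49 to 54 with any single array left out. Bhlha15 (Mist1), the transcription factor of secretory acinar cells, had 7.89 and 8.48 in LG, against -1.12, -0.92 and 0.15 in HG. The LG arrays stood over 7 log2 units above the highest HG array, and the difference was 8.81 ± 0.47 (limma, adjusted p = 2.48e-11). Xbp1, a transcription factor of the unfolded protein response, had 8.50 and 9.14 in LG, against 5.80, 5.18 and 5.71 in HG, a 9.59-fold difference (limma, adjusted p = 4.01e-10).

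Derl3, a factor of ER-associated degradation, had 7.36 and 7.90 in LG, against 0.74, 1.13 and -0.05 in HG. Sdf2l1 (difference 4.81 ± 0.30), a chaperone partner in the ER lumen, Edem2 (4.26 ± 0.18), which trims mannose from misfolded glycoproteins, and Tram1 (3.54 ± 0.15), a translocon component, were also among the largest. These 6 genes were called higher in LG with adjusted p of at most 4.01e-10 (limma). Members of the translocon (Sec61a1, Sec61b), the signal peptidase (Spcs2, Spcs3) and the signal recognition particle receptor (Srpr) were higher by 2.22 to 2.58 (these were chosen after their values were seen). The 4 lower members were Pdia2 (-2.61 ± 0.31), a disulfide isomerase, Sar1b (-2.18 ± 0.20), a coat GTPase that also serves lipoprotein export, Srp14 (-0.66 ± 0.18) and Ddit3 (-0.59 ± 0.17). Srp14 was no longer called without LG replicate 1 (-0.49, adjusted p = 0.072), nor Ddit3 without LG replicate 2 (-0.50, adjusted p = 0.058; limma).

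Promoter sequences were read from RefSeq (build GRCm38.p6), over 250 bases before and 50 after the gene start, for 12892 of the tested genes and 52 of the 64 ER genes. The ER stress response element, which in mammals is bound by ATF6 and XBP1 together with NF-Y, was searched on both strands as CCAAT and CCACG with 9 bases of any kind between them; the motif was chosen after the differences were seen. It was present in 8 of 52 ER promoters (15.4%), against 19 of all 12892 (0.147%), and in 0 of 44 promoters of tear protein genes. The 8 windows are printed 5′ to 3′ on the strand of the gene, with the element in capitals; where it runs on the opposite strand the capitals show its reverse complement. A match is a description of the letters and not a measured site.
Hspa5, chr2:34772005-34772063, plus strand: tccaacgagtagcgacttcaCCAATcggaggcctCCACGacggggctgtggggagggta
Hsp90b1, chr10:86705618-86705676, minus strand: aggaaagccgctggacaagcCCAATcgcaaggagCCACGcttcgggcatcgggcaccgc
Pdia6, chr12:17266471-17266529, plus strand: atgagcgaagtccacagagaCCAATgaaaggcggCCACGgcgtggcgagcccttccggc
Calr, chr8:84847055-84847113, minus strand: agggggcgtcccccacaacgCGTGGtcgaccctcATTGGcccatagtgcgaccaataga
Canx, chr11:50325780-50325838, minus strand: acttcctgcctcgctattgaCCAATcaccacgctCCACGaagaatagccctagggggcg
Dnajc3, chr14:118937807-118937865, plus strand: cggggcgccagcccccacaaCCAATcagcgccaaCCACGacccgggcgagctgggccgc
Creld2, chr15:88819500-88819558, plus strand: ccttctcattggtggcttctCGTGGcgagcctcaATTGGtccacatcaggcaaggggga
Derl3, chr10:75893222-75893280, plus strand: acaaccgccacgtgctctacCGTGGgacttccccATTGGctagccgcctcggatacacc

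The genes with this element did not move alike. Derl3 differed by 7.02, Dnajc3 (a co-chaperone) by 2.39, Creld2 by 2.05, Calr (calreticulin) by 2.02, Hspa5 (the chaperone BiP) by 1.63 and Hsp90b1 (the chaperone GRP94) by 1.11, all called higher in LG. Pdia6 (0.46, adjusted p = 0.122) and Canx (calnexin, -0.16, adjusted p = 0.377) did not pass the test (limma). The 56 other tested members of the list either lacked these letters in the window or had no promoter entry, and they include Bhlha15, Sdf2l1 and Tram1.

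The promoters of the tear protein genes were searched for TATAAA on the gene strand, lying wholly within the stretch from 45 to 15 bases before the gene start. It was present in 8 of 44 (18.2%), against 328 of 12892 promoters (2.54%) and 0 of 52 ER promoters. Of these, 4 are shown because they belong to leading LG transcripts and because 2 of them, of the secretoglobins, share their first stretch letter for letter; the capitals mark TATAAA, and each sequence ends just before the gene start (GRCm38.p6).
Pip, chr6:41847496-41847548, plus strand: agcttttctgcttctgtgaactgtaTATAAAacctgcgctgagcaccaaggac
Mup4, chr4:59960668-59960719, minus strand: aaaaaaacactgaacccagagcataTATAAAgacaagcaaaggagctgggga
Scgb1b2, chr7:31291817-31291870, minus strand: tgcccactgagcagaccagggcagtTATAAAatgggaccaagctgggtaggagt
Scgb1b24, chr7:33743730-33743782, plus strand: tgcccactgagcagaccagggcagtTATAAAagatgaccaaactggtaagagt

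Genes of fluid secretion did not favour either gland as a group, with 15 of 54 higher, 20 lower and a median difference of -0.14. These shares of 27.8% and 37.0% were near the 22.4% and 33.2% of all genes. The water channels divided between the glands. Aqp5, the apical channel of secretory acini, had 6.71 and 7.14 in LG, against 1.95, 1.81 and 1.75 in HG, a 34.0-fold difference (limma, adjusted p = 5.1e-10). Aqp3, a channel that also passes glycerol, had -3.04 and -4.30 in LG, against 6.20, 5.59 and 6.14 in HG, a difference of -9.65 ± 0.52 that includes 1 LG array below background (limma, adjusted p = 2.66e-11). Aqp11 (-6.53 ± 0.27) and Aqp8 (-2.23 ± 0.54) were also lower in LG. The glands did not overlap for either Aqp5 or Aqp3.

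Of the receptors and effectors that drive secretion, Chrm3, the muscarinic receptor for acetylcholine, had 0.96 and 1.43 in LG, against 0.84, 1.21 and 1.49 in HG. The groups overlapped, and the difference was 0.02 ± 0.46 (limma, adjusted p = 0.98). Ano1, the calcium-gated chloride channel, likewise overlapped (-0.12 ± 0.25, adjusted p = 0.717). The adrenergic receptor gene Adra1b was higher in LG (2.96 ± 0.31), as were Plcb1, a phospholipase C (3.14 ± 0.30), and the calcium channel Trpv6 (4.70 ± 0.33). Slc12a2, the sodium-potassium-chloride cotransporter, was lower in LG (-1.15 ± 0.26), as were the potassium channel Kcnn4 (-2.10 ± 0.51) and the purine receptor P2ry2, which was at least 7.15-fold lower. Each of these 6 was called with an adjusted p of at most 0.00194 (limma).

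Fatty acid synthesis and elongation were lower in LG at almost every step. Of 40 genes tested, 31 were lower, against a background of 33.2% of all genes, and 4 were higher; the median difference was -3.32, and 28 were lower on probes above background on all 5 arrays. The list summed to 285 and 359 times the 75th percentile on the LG arrays, against 4251, 5340 and 7920 on the HG arrays. Acly (-4.83 ± 0.20) makes cytosolic acetyl-CoA from citrate, Acaca (-6.69 ± 0.24) carboxylates it to malonyl-CoA, and Me1 (-3.23 ± 0.24) supplies NADPH. Fasn, fatty acid synthase, had -0.49 and -0.77 in LG, against 5.79, 6.69 and 7.08 in HG, and was 142-fold lower in LG (limma, adjusted p = 9.79e-14).

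Among the elongases, which lengthen fatty acids beyond the product of Fasn, Elovl3 had -4.17 and -4.73 in LG, where it was not well above background, against 7.40, 7.04 and 8.23 in HG. LG was at least 1545-fold lower (limma, adjusted p = 1.51e-10). Elovl5 had 1.19 and -0.36 in LG, against 9.71, 9.41 and 10.19 in HG, and Elovl6 differed by -9.20 ± 0.30. Elovl7 went the other way, with 0.58 and 1.35 in LG, against -2.32, -3.23 and -3.05 in HG (difference 3.83 ± 0.34; limma, adjusted p = 2.4e-08). None of these 4 overlapped between the glands. Elovl4, known for very long chains in skin, retina and meibomian gland, was called lower (-1.49) by a probe below background in LG, and its other probe gave 0.25; its sign turned under another background correction.

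The stearoyl-CoA desaturases, which place the first double bond, differed in size. Scd3 had 0.55 and -0.23 in LG, against 8.53, 7.56 and 7.07 in HG (-7.56 ± 0.33), and its other probes gave -11.31 and -8.09. Scd1 differed by -5.57 ± 0.27 and Scd2 by -2.05 ± 0.32, while Scd4 did not pass the test (1.14 ± 0.80, adjusted p = 0.235; limma). Pparg, the nuclear receptor of lipogenic cells, had -0.50 and -1.27 in LG, against 5.84, 6.59 and 6.65 in HG, and was 152-fold lower in LG (limma, adjusted p = 5.75e-14). Srebf1, a transcription factor of lipid synthesis, differed by -3.16 ± 0.16, and Acsbg1, an acyl-CoA synthetase, by -8.30 ± 0.44.

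Genes that build and store glycerolipids followed. Of 41, 25 were lower in LG and 7 higher, with a median of -2.25, and 18 were lower on probes above background on all 5 arrays. Plin2, a coat protein of lipid droplets, had 2.31 and 0.99 in LG, against 10.10, 9.89 and 10.49 in HG. Mogat1, a monoacylglycerol acyltransferase, had -1.70 and -2.67 in LG, against 8.44, 8.13 and 8.98 in HG. The groups did not overlap for either gene, and the differences were -8.51 ± 0.27 and -10.70 ± 0.50 (limma, adjusted p = 3.02e-14 and 3.8e-12). Dgat2l6, an acyltransferase of the DGAT2 family, had -3.51 and -4.94 in LG, against 6.65, 6.84 and 7.88 in HG, and was at least 1144-fold lower in LG.

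The enzymes that complete triacylglycerol, Dgat1 (-4.09 ± 0.18) and Dgat2 (-3.84 ± 0.26), were also lower in LG, as were Cidea (-8.01 ± 0.44), which enlarges lipid droplets, Fabp5 (-6.46 ± 0.24), a fatty acid binding protein, and Apoc1 (-8.10 ± 0.22), an apolipoprotein. The higher members were led by Soat1 (3.80 ± 0.66), a sterol acyltransferase, Gpat3 (2.33 ± 0.36) and Gpat4 (1.98 ± 0.19), which attach the first acyl chain to glycerol phosphate. Each of these 8 was called with an adjusted p of at most 8.72e-05 (limma). Ether lipid synthesis, the pathway of the HG's known ether-linked lipids, was lower for 7 of 9 genes and higher for 1, with a median of -1.92. Agps, the peroxisomal enzyme that forms the ether bond, had 1.34 and 1.77 in LG, against 8.16, 8.04 and 8.63 in HG (-6.72 ± 0.20; limma, adjusted p = 1.01e-14).

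Gnpat, the acyltransferase that precedes Agps, differed by -3.28 ± 0.16, and Dhrs7b, the reductase that follows it, by -3.56 ± 0.23. Far2, which reduces acyl-CoA to fatty alcohol, had -2.46 and -3.97 in LG, against -2.47, -0.97 and -0.21 in HG. LG replicate 1 overlapped with HG replicate 1, and the call (-2.00 ± 0.78, adjusted p = 0.0374) was lost without LG replicate 2 (adjusted p = 0.3), HG replicate 2 (0.081) or HG replicate 3 (0.14; limma). Selenoi, an ethanolamine phosphotransferase, was the only higher member (0.97 ± 0.28), and its call was lost without LG replicate 2 (0.51, adjusted p = 0.18). Far1 was not analysed here.

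Cholesterol synthesis was lower in LG for 21 of 27 genes and higher for 2, with a median of -2.86. Sqle, squalene epoxidase, had 1.08 and 1.47 in LG, against 7.73, 7.96 and 8.52 in HG, and was 111-fold lower in LG (limma, adjusted p = 1.58e-14). Pmvk, a mevalonate pathway kinase, differed by -4.77 ± 0.25. The 2 higher genes do not synthesise sterol: Insig2 (1.69 ± 0.25) holds the sterol sensor in the ER and Abca1 (1.48 ± 0.25) exports cholesterol. Both were called with an adjusted p of at most 6.79e-05 (limma). The count of higher members was 3 without LG replicate 1 and 4 without HG replicate 3.

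Porphyrin synthesis was lower in LG for 18 of 22 genes and higher for 1, with a median of -1.60, and all 22 genes had a probe above background on all 5 arrays. Alas1, the first and rate-limiting enzyme of the pathway, had 5.76 and 5.41 in LG, against 8.0, 8.18 and 8.04 in HG, a 5.62-fold lower level (limma, adjusted p = 7.04e-11). The groups stood apart by more than 2 log2 units. Of the enzymes that act after it, Alad differed by -3.14 ± 0.18, Uros by -1.42 ± 0.24, Urod by -3.07 ± 0.24, Cpox by -1.64 ± 0.28 and Ppox by -1.28 ± 0.30 (Uros was chosen after its value was seen). Fech, which inserts iron to form heme, had 3.20 and 3.72 in LG, against 3.31, 3.67 and 3.91 in HG. It overlapped between the glands and did not pass the test (-0.17 ± 0.22, adjusted p = 0.526; limma).

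Abcg2, an exporter of porphyrins and other compounds, had 0.18 and -0.66 in LG, against 6.54, 6.57 and 6.73 in HG, and was 115-fold lower in LG (limma, adjusted p = 6.35e-15). Hebp1, a heme-binding protein, differed by -4.65 ± 0.19, and Abcb6, a porphyrin transporter, was the higher member (1.58 ± 0.16). Alas2, the erythroid form of the first enzyme, was called lower (-1.92 ± 0.60, adjusted p = 0.0112), and the call was lost without LG replicate 2 (-1.76, adjusted p = 0.072; limma). Red cell markers summed to 217 and 153 on the LG arrays, against 1401, 864 and 230 on the HG arrays, so HG replicate 3 was close to LG replicate 1. Of 15 tested, 6 were lower (40%, against 33.2% of all genes) and 1 was higher. Without HG replicate 1, 3 were lower and 2 higher. Their part in the Alas2 difference was not tested.

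**Figure D3:**
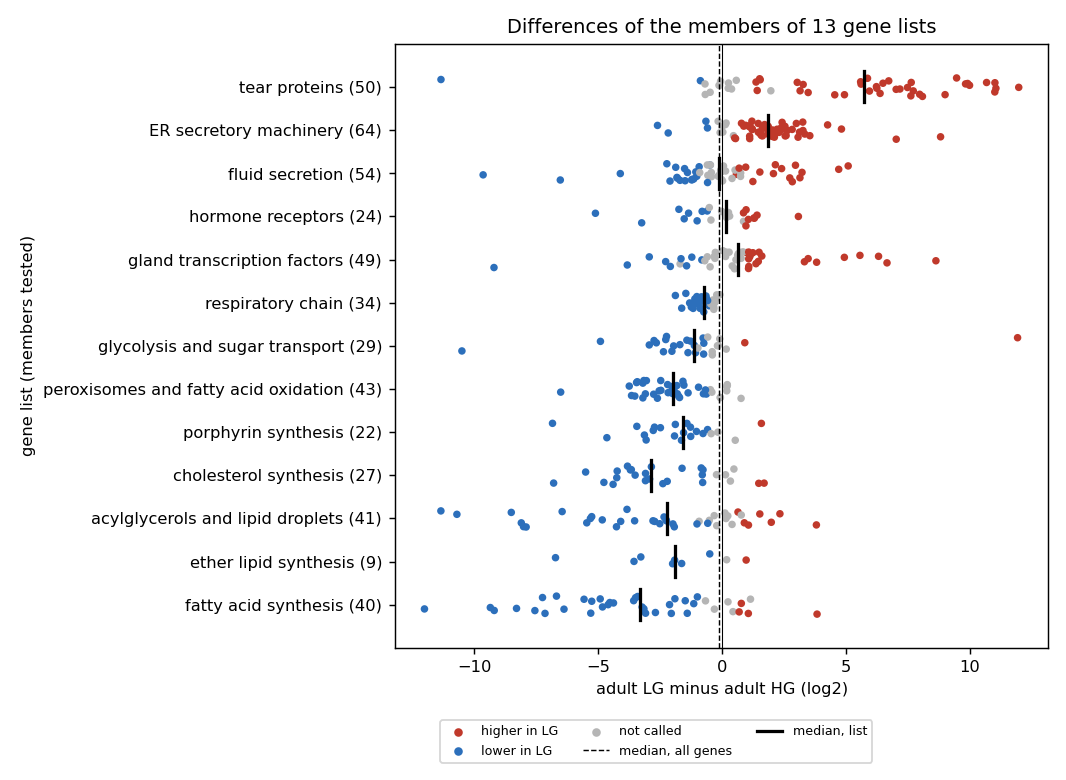
Difference between adult LG and adult HG (log2, horizontal axis) of every tested member of 13 gene lists (rows, with the number of members); red points were called higher in LG, blue points lower, grey points did not pass, thick bars are list medians and the dashed line is the median of all genes (-0.13). ER genes centre on 1.84 and tear proteins on 5.74, whereas fatty acid synthesis centres on -3.32 and porphyrin synthesis on -1.60.

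Oxidative and sugar metabolism were also lower in LG. Of 43 genes of peroxisomes and fatty acid oxidation, 34 were lower and 0 higher, with a median of -1.98; without LG replicate 1, HG replicate 1 or HG replicate 3 the count of higher genes was 1. Acox2, a peroxisomal oxidase, had -1.46 and -0.52 in LG, against 5.11, 5.65 and 5.81 in HG. Catalase, Cat, differed by -3.66 ± 0.20 and Decr1, a dienoyl-CoA reductase, by -3.52 ± 0.20. In the respiratory chain 24 of 34 genes were lower and 0 higher, but the median was only -0.75 and the largest difference -1.89 ± 0.23 (Cox6c). When the 5 adult arrays were fitted alone, 6 of the 34 were lower.

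Of 29 genes of glycolysis and sugar transport, 19 were lower in LG and 2 higher. Pck1, phosphoenolpyruvate carboxykinase, had -2.59 and -5.06 in LG, against 6.16, 6.98 and 6.89 in HG, a difference of -10.50 ± 0.48 (limma, adjusted p = 2.74e-12). Pdk4, a kinase that restrains pyruvate oxidation, differed by -4.91 ± 0.21 and pyruvate carboxylase, Pcx, by -2.94 ± 0.25. The higher genes were Slc2a5, described above, and hexokinase Hk1 (0.91 ± 0.36), whose call was lost without LG replicate 2 (0.61, adjusted p = 0.28), HG replicate 1 (0.68, adjusted p = 0.14) or HG replicate 2 (0.73, adjusted p = 0.13; limma).

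Among the 15 largest negative differences were genes of several further kinds. Cartpt, the precursor of a neuropeptide, had -1.08 and -2.14 in LG, against 9.50, 9.47 and 9.66 in HG (-11.15 ± 0.57; limma, adjusted p = 1.29e-11). Sptlc3, a subunit of the first enzyme of sphingolipid synthesis, was at least 1925-fold lower in LG. Cyp4a32, a cytochrome of the family that hydroxylates fatty acids, was at least 799-fold lower. Mboat2, a lysophospholipid acyltransferase, had -3.82 and -4.46 in LG, against 5.69, 6.36 and 6.40 in HG, and was at least 581-fold lower. S100a8, a subunit of calprotectin that is abundant in neutrophils and also made by epithelia, had -5.30 and -4.51 in LG, against 6.89, 6.42 and 6.28 in HG, and its partner S100a9 differed by -5.18 ± 0.50. The myeloid list as a whole had 3 of 25 lower and 3 higher (12% each, against 33.2% and 22.4% of all genes). Its summed levels were 353 and 236 in LG, against 626, 330 and 234 in HG.

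Of 24 hormone receptors 8 were higher in LG, against 22.4% of all genes, and 8 were lower, near the 33.2% of all genes; with median scaling 4 were higher. Rxra, the retinoid X receptor partner of other nuclear receptors, differed by 3.08 ± 0.32, though its other probe gave -0.18. Adipor2, an adiponectin receptor, had 4.66 and 4.82 in LG, against 9.83, 9.69 and 10.04 in HG (-5.11 ± 0.14; limma, adjusted p = 4.9e-15). The prolactin receptor gene Prlr was lower (-1.75 ± 0.29), as was the vitamin D receptor gene Vdr (-3.25 ± 0.37). Without LG replicate 2, 4 receptors were higher. Of 14 genes of melatonin synthesis and the clock, 2 were higher in LG and 0 lower; without HG replicate 2, 7 were higher and 1 lower. Aanat, which acetylates serotonin on the way to melatonin, had 0.92 and 0.57 in LG, against -0.32, 0.39 and -1.03 in HG (1.06 ± 0.50, adjusted p = 0.0816; limma), and without HG replicate 2 the difference was 1.42 at an adjusted p of 0.031. Asmt and Esr1 were not analysed here.

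Among transcription factors of gland development, 20 of 49 were higher in LG, against 22.4% of all genes, and 9 were lower, against 33.2%. With median scaling 10 were higher and with quantile normalization 13, and 5 of the 20 were below background in both glands; 12 were higher and 5 lower on probes above background on all 5 arrays. Foxa1, a pioneer factor of glandular epithelium, had 4.42 and 5.02 in LG, against -2.28, -4.29 and -5.14 in HG. Six2, a homeobox factor, had 3.93 and 4.61 in LG, against -1.08, -1.71 and -3.34 in HG. LG lay above HG on every array by over 5 log2 units for both, with differences of 8.63 ± 0.68 and 6.31 ± 0.49 (limma, adjusted p = 5.44e-09 and 4.31e-09). The related gene Six4 (4.93 ± 0.18) was also higher, as was Spdef, a factor of secretory cells (5.56 ± 0.29).

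Gata6, a zinc finger factor, had -2.77 and -4.67 in LG, against 4.88, 5.49 and 6.08 in HG, a difference of -9.21 ± 0.54 that includes 1 LG array below background (limma, adjusted p = 8.13e-11). Tbx1, a T-box factor, was at least 2.99-fold lower, Sox10, a factor of neural crest and of LG acini, differed by -2.94 ± 0.32, and Elf5, of secretory epithelium, by -2.28 ± 0.53. Sox9 (1.24 ± 0.27) and Foxc1 (1.60 ± 0.35) were modestly higher. Pax6, required for eye formation, had 2.49 and 3.40 in LG, against 1.68, 2.52 and 2.41 in HG and did not pass the test (0.74 ± 0.52, adjusted p = 0.243), nor did Barx2 (-0.32, adjusted p = 0.639; limma).

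Growth signals had 14 of 45 genes higher, of which 6 were below background in both glands, and 15 lower, near the 33.2% of all genes. With median scaling 5 were higher. Wnt5a, a secreted Wnt ligand, had -2.61 and -3.64 in LG, against 2.02, 2.19 and 2.57 in HG (-5.38 ± 0.33; limma, adjusted p = 1.32e-10). Spry2, an inhibitor of receptor tyrosine kinase signals, had 0.18 and -0.18 in LG, against -3.76, -5.64 and -6.10 in HG. Bmp4, a ligand (-2.46 ± 0.37), and its target Id1 (-2.56 ± 0.42) were lower in LG, and Bmp7 was higher (1.73 ± 0.20). Fgfr2, the receptor of FGF10, was higher by 0.99 ± 0.12, and Fgf10 itself overlapped between the glands (-1.46 ± 0.79, adjusted p = 0.123) and passed only without HG replicate 3 (-2.04, adjusted p = 0.043; limma). Cell cycle genes had 7 of 29 higher (24.1%, near the 22.4% of all genes) and 14 lower (48.3%, against 33.2%). On probes above background on all 5 arrays 3 were higher and 11 lower.

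The labels of the tissues were set against markers of cell types. Of 20 epithelial markers, 3 were higher in LG (15%, against 22.4% of all genes) and 2 lower (10%, against 33.2%). Without HG replicate 1 or HG replicate 2, 1 was lower. Epcam had 2.81 and 3.23 in LG, against 2.77, 3.09 and 3.36 in HG, and Cdh1 had 2.03 and 2.70, against 2.46, 2.63 and 3.12. Both genes, which hold epithelial cells together, overlapped between the glands, and their differences of -0.05 and -0.37 did not pass the test (limma, adjusted p = 0.947 and 0.553). The higher markers included Prom2, a protein of plasma membrane protrusions (8.83 ± 0.69; other probe 4.78), and Dsp, a desmosomal protein (3.66), and the lower markers included Cldn7, a claudin (-1.37). Lactoperoxidase and Bhlha15 were higher in the arrays labelled LG, and most lipogenic enzymes in those labelled HG. These genes were chosen with earlier results of these data known, and Bhlha15 is also on the salivary list. They are therefore no independent check of the labels.

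Stromal and vascular markers were lower in LG. Of 24 fibroblast and matrix genes 20 were lower and 1 higher (summed levels 307 and 234 in LG, against 986, 671 and 548 in HG), and of 19 endothelial genes 13 were lower and 1 higher (47.7 and 31.5, against 122, 63.2 and 45.8). Mfap4, a microfibril protein, had -1.41 and -1.39 in LG, against 3.57, 3.85 and 3.45 in HG. Cldn5, the endothelial tight junction protein, had -2.80 and -2.51, against 1.95, 1.91 and 2.11. Neither gene overlapped between the glands, and both sums were highest on HG replicate 1. On probes above background on all 5 arrays 7 endothelial genes were lower, and the 1 higher endothelial gene was not called without LG replicate 1 or HG replicate 3, while 2 were higher without LG replicate 2 or HG replicate 1. Eln, elastin, was the higher matrix member, at 4.97 and 2.50 in LG, against -1.85, -0.22 and -1.10 in HG (4.79 ± 0.55; limma, adjusted p = 7.01e-07).

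Basal and myoepithelial markers were lower for 9 of 14 genes and higher for 2. Krt15, a keratin of basal cells, had -3.40 and -4.67 in LG, against 5.0, 5.38 and 1.53 in HG, at least 129-fold lower. Acta2, smooth muscle actin of myoepithelial cells, differed by -1.11 ± 0.37 (adjusted p = 0.0175), and the call was lost without LG replicate 1 (adjusted p = 0.058), LG replicate 2 (0.082) or HG replicate 3 (0.072; limma). Pigment cell markers were lower for 7 of 13 and higher for 0: Dct, an enzyme of melanin synthesis, had -4.81 on each LG array, against 5.05, 4.66 and 4.90 in HG, at least 240-fold lower, and the list summed to 11.3 and 12.1 in LG, against 54.0, 40.4 and 44.6 in HG. On probes above background on all 5 arrays 1 pigment marker was lower. Skeletal muscle markers were lower for 7 of 23, near the 33.2% of all genes, and higher for 0 with all arrays, lower for 13 without HG replicate 3 and higher for 3 without HG replicate 1.

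Sebaceous and meibomian markers, which share lipid genes with the lists above, were lower for 12 of 14 and higher for 1, with a median of -6.76 (7 lower on probes above background on all 5 arrays). Mast cell markers were higher for 6 of 9 and lower for 0, with 2 higher on probes above background on all 5 arrays. Cpa3, a mast cell protease, had 1.32 and 0.56 in LG, against -1.0, -2.82 and -5.84 in HG (4.16 ± 0.99; limma, adjusted p = 0.00158), and the proteases Mcpt4 (3.03 ± 0.82), Cma1 (2.78 ± 0.67) and Tpsb2 (2.34 ± 0.44) were higher too. Of 12 plasma and B cell markers, 4 were higher (33.3%, against 22.4% of all genes) and 1 lower (8.33%, against 33.2%). The count of lower members was 2 without HG replicate 2 and 4 without HG replicate 3. This list also holds the ER gene Derl3, described above and called higher in LG, and the epithelial gene Ccl28. Its count is therefore not one of plasma and B cells alone. Jchain, which joins immunoglobulin in plasma cells, had 3.38 and 0.83 in LG, against 6.02, 0.74 and -3.45 in HG, a spread of over 9 log2 units within HG (1.0 ± 1.55, adjusted p = 0.606). Without HG replicate 1 its difference was 3.46 at an adjusted p of 0.005 (limma). Ccl28, an epithelial chemokine that attracts plasma cells, had 2.79 and 3.06 in LG, against -2.33, -3.52 and -2.58 in HG.

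T cell markers had 4 of 12 higher (33.3%, against 22.4% of all genes) and 1 lower (8.33%, against 33.2%). The count of higher markers was 2 without HG replicate 3 and 7 without HG replicate 1. On probes above background on all 5 arrays, or with the 5 adult arrays fitted alone, that count was 1. The myeloid list had 12 higher without HG replicate 1, 5 without LG replicate 2, and 0 without LG replicate 1 or HG replicate 3, and 6 lower without HG replicate 3. The part of these cell type differences in the gene differences above was not tested, apart from the leave-out values given.

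**Figure D4:**
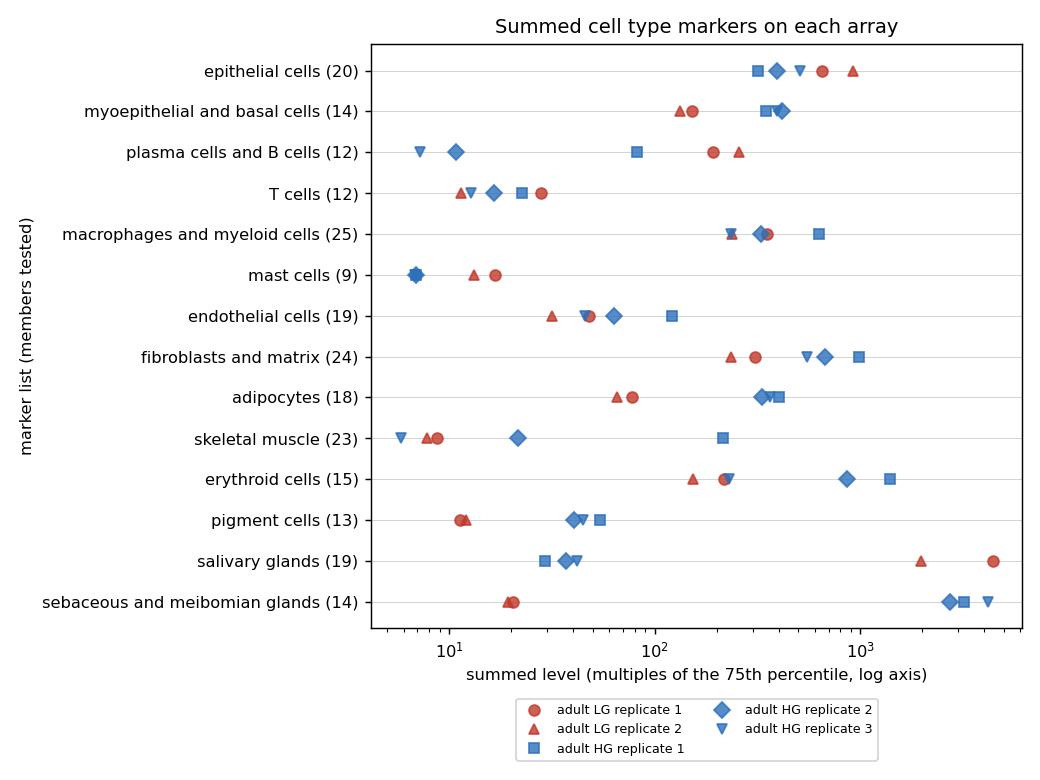
Summed level of the members of 14 marker lists on each adult array (horizontal axis, multiples of the array's 75th percentile, log axis); red symbols are the 2 LG arrays and blue symbols the 3 HG arrays. Skeletal muscle spreads from 5.81 to 214 within HG, salivary markers lie at 4412 and 1963 in LG against at most 41.8 in HG, and the sebaceous and meibomian list lies at 20.4 and 19.2 in LG against 2740 to 4194 in HG. The salivary list includes Car6 and Bhlha15, and the plasma and B cell list includes the ER gene Derl3, all high on both LG arrays.

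The adult difference was then set against the difference between the epithelia of the same glands at E16.5, separated from their mesenchyme. In the embryo 484 genes were higher in LG epithelium than in HG epithelium (2.97%) and 553 were lower (3.39%). Of the adult calls, 144 were higher at both ages, 3.94% of the adult and 29.8% of the embryonic higher genes. Of all genes 22.4% were higher in adult LG. A further 251 were lower at both ages (4.63% and 45.4%), against 33.2% of all genes lower in adult LG. Signs differed for 131 genes, higher in adult LG and lower in embryonic LG, and for 175 the reverse. Embryonic higher genes were thus lower in adult LG more often (175) than higher (144). The difference of the differences, adult minus embryonic, was positive for 2949 genes (18.1%) and negative for 4427 (27.1%; limma, adjusted p below 0.05). Adult glands were whole, and the embryonic samples were not. The Y-linked genes Ddx3y and Eif2s3y were above background on 3 of 3 arrays of each embryonic epithelium. They were so on 0 of 3 adult HG and 0 of 2 adult LG arrays, while Xist was above background on every array of these groups. Age, the presence of other tissue and the sex of the animals therefore cannot be told apart.

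Secretory and lipid lists centred near 0 at E16.5. A probe had to be above background in only 1 of the 8 groups, so members may lie below background in both embryonic epithelia. A median near 0 therefore need not mean equal expression there. The median embryonic difference was -0.38 for tear proteins, 0.05 for ER genes, 0.26 for fatty acid synthesis and -0.01 for porphyrin synthesis, against adult medians of 5.74, 1.84, -3.32 and -1.60. Fasn differed by 0.29 at E16.5 (adjusted p = 0.72) and Bhlha15 by -0.23 (0.96), neither called (limma). Aqp5 was already higher in embryonic LG epithelium (2.31, adjusted p = 4.96e-05), and its adult difference was larger by 2.77 ± 0.46 (adjusted p = 7.73e-05; limma). Aqp3 was already lower in it (-2.35, adjusted p = 0.0031).

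Several transcription factors separated the glands at both ages. Six2 differed by 3.59 at E16.5 against 6.31 in adults, a change of 2.72 ± 0.66 (adjusted p = 0.00257; limma), and Gata6 by -6.25 against -9.21 in adults, a change of -2.96 ± 0.72 (adjusted p = 0.00275; limma). Tbx1 was lower in LG at E16.5 (-4.56), and in adults it was at least 2.99-fold lower, with LG not above background. Foxa1 reversed: it was lower in embryonic LG epithelium (-2.68, adjusted p = 0.00953) and higher in adult LG, a change of 11.30 ± 0.92 (adjusted p = 1.51e-08; limma). Lef1, a Wnt effector, was lower in embryonic LG epithelium (-5.67), and in adults it was not well above background in either gland. Fzd10, a Wnt receptor, was lower in embryonic LG epithelium (-4.46) and higher in adult LG (4.40 ± 0.36).

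Chrm3 showed the opposite course, with a difference of 3.95 between the embryonic epithelia (adjusted p = 3.47e-06) and 0.02 in adults, a change of -3.93 ± 0.61 (adjusted p = 4.53e-05; limma). The contractile genes Acta2 and Tagln were higher in embryonic LG epithelium (2.36 and 2.08) and lower in adult LG (-1.11 and -2.00).

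**Figure D5:**
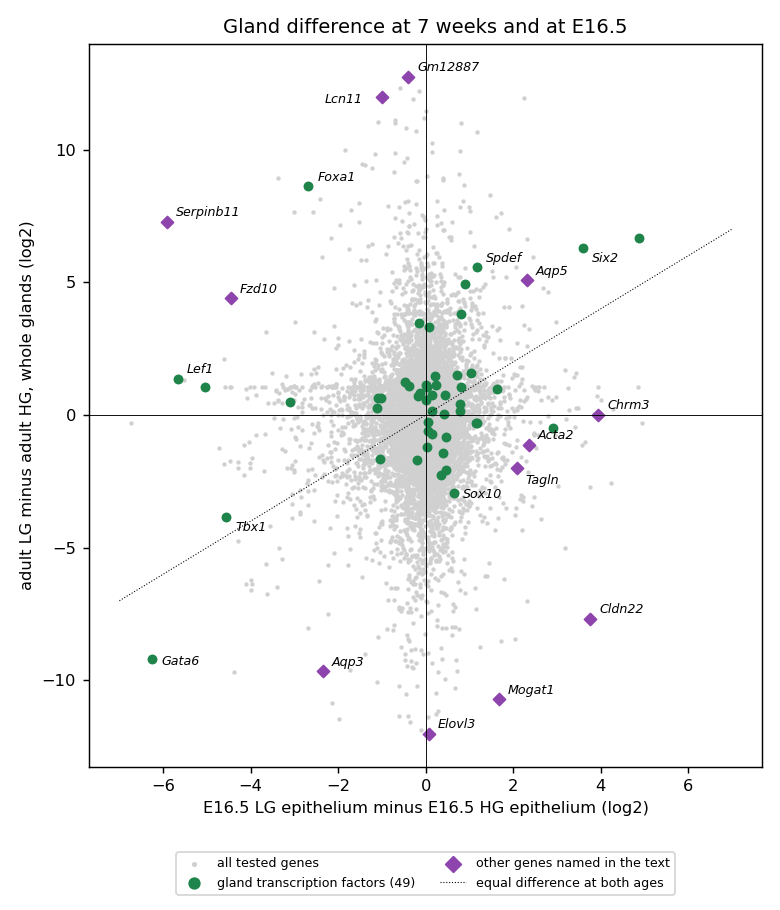
Difference between adult LG and adult HG (vertical axis, log2) against the difference between E16.5 LG and HG epithelium (horizontal axis, log2) for all tested genes; green points are the 49 gland transcription factors and purple diamonds other genes named in the text, and the dotted line marks equal differences. Six2, Gata6 and Tbx1 keep their sign, Foxa1, Serpinb11, Cldn22 and Fzd10 change it, and Mogat1, Elovl3, Lcn11 and Gm12887 have fitted adult differences of over 10 log2 units with at most 1.67 at E16.5.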

How the data were processed

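The authors deposited 1 scanner file per array, made with Agilent Feature Extraction; the submitters' processing notes name version 11.5.1.1, and the file headers name 11.0.1.1 for slide 1 and 11.5.1.1 for slides 2 and 3. The measured value was gProcessedSignal, the scanner software's background-subtracted intensity per the file headers; the authors' deposited series table holds the same intensity values averaged over the spots of a probe. Of 59305 non-control spots per array, outlier spots were left out, spots of a probe averaged, and log2 taken of the deposited intensity minus the log2 of the array's 75th percentile over non-control probes. A probe was kept when, in 1 or more of the 8 groups, every array had at least 0.5 of its spots flagged well above background. Gene symbols came from a RefSeq gene list, matched by the transcript name that the files give for each probe. Of 55681 probes, 27509 matched 1 of 20887 symbols and 28172 matched none. The kept probe with the highest mean over the 23 arrays stood for its gene, leaving 16323 genes.

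All 23 arrays were fitted in limma 3.58.1 (R 4.3.3; lmFit, eBayes) with 8 groups, so that the spread was pooled over groups. The contrasts were adult LG minus adult HG and its difference from E16.5 LG epithelium minus E16.5 HG epithelium, two-sided, adjusted by Benjamini-Hochberg over all genes, at 0.05; means of 2 and 3 arrays limit the precision. A gene whose probes were all not well above background on every array of a gland has only a bound. The fit was tested on simulated data.

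Named genes are the 15 largest and 15 smallest called differences without overlap, up to 5 called members of each list in each direction, a list of anchor genes, the 6 largest and 6 smallest changes between ages and the 10 brightest genes of each gland. Members of the comparison and all gene lists were chosen with earlier results of these data known. Deviations of LG and HG arrays from their group means correlated at 0.198 for replicate 1 and -0.312 for replicate 2. For arrays of the same slide they correlated at 0.312 on slide 2 and 0.402 on slide 3. The deviations of 2 LG arrays mirror each other, so the values for replicate 2 and slide 2 are 1 correlation with opposite signs. These values therefore cannot decide whether replicate number or slide pairs the samples. Slides were read from the headers: HG replicate 1 was on slide 1, LG replicate 1 and HG replicate 2 on slide 2, LG replicate 2 and HG replicate 3 on slide 3. Mean signal was not used here, so the normexp alternative (offset 50) took the median spot signal. Figures were drawn with matplotlib 3.10.9. Some genes are not reported here.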

Additional observations from a re-analysis of the deposited data

Results flagged for a closer look

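For 12 genes the difference between the glands changed most between adult glands and E16.5 epithelia, by a test of the change itself (limma, Benjamini-Hochberg). Values are adult minus embryonic LG-HG differences in log2, and their causes were not tested. Gm12887 in adult HG, and Elovl3, Cyp4a32 and Sptlc3 in adult LG, were not well above background, and Lcn11, Gm12888, Gm12886, Gm14743, Serpinb11, Mogat1 and Cldn22 were so on some arrays of a gland, so the fitted sizes and their order are uncertain. In the positive direction Serpinb11, of the serpin family, led with 13.20 ± 1.22: it was higher in adult LG (7.29 ± 0.91) and lower in embryonic LG epithelium (-5.91 ± 0.81). Gm12887 changed by 13.14, Lcn11 by 12.96, Gm12888 by 12.92 and Gm12886 by 12.35, and these 4 were not called between the embryonic epithelia. Gm14743, on chromosome X, changed by 12.33 ± 3.36 (adjusted p = 0.00606), the least precise of the 12. In the negative direction Mogat1 changed by -12.37 with an embryonic difference of 1.67 in the opposite direction (adjusted p = 0.0291). Elovl3 changed by -12.09, Cyp4a32 by -11.76, Sptlc3 by -11.51 and Cartpt by -11.44, none of them called in the embryo. Cldn22, a claudin, changed by -11.44 ± 1.43: it was lower in adult LG (-7.68 ± 1.06, with 2.71 and -3.64 on the LG arrays) and higher in embryonic LG epithelium (3.76 ± 0.95).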

How the results depend on the processing

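Of 303 genes named by the rule, the series table's values kept direction and call for 303, slide as a block for 299, the scaling to the array median for 268, leaving out LG replicate 2 for 261 and fitting the 5 adult arrays alone for 225. With slide as a block 4211 genes were higher and 5987 lower. Higher genes, 3659 with the settings of the report, numbered 1902 with median scaling, 5878 with no filter on dim probes and 1657 with the 5 adult arrays alone, where 2712 were lower in place of 5421. In that fit 11 genes of fluid secretion and 2 of the cell cycle were lower, and 3 hormone receptors were higher. At least 2-fold higher genes, 2553 in the report, numbered 1652 with normexp, 4592 with no filter, 1512 on probes above background on all 5 arrays and 1657 with the adult arrays alone. Genes with a positive change between ages, 2949 in the report, numbered 1473 with median scaling, 4676 with normexp and 5031 with no filter. The share of calls that were higher in LG was 40.3% in the report, 27.9% with median scaling, 54.2% with the percentile taken over probes above background on all 5 arrays (5073 higher, 4295 lower), 51.8% with normexp (5447 and 5078) and 52.2% with no filter. The median difference of all genes was -0.13, and -0.38, 0.15 and 0.06 under the first 3 of these and -0.14 with quantile normalization. Leaving out 1 adult array gave 2737 to 3656 higher genes (2065 to 2625 at least 2-fold), 4345 to 5545 lower genes (3280 to 3788), 2416 to 3057 positive and 3653 to 4714 negative changes between ages. With the replicate number as a replicate block, 4017 genes were higher and 5643 lower, 2638 and 3526 at least 2-fold, with 3326 positive and 4742 negative changes; the block changed 7 of the 303 calls (6 lost and 1 gained). Signs turned with quantile normalization for Exosc2 (-0.14), Glrx2 (-0.19), Kctd14 (-0.21) and Kif11 (-0.18). They turned with normexp for Ang2 (0.36), Ccnb1 (0.0311), Des (0.0026), Elovl4 (0.39), Gap43 (0.30), Krt1 (0.39), Nkx2-3 (0.14), Oca2 (0.13) and Wif1 (0.0101). The mean of the probes of a gene gave -1.0 for Kctd14, and leaving out 1 adult array gave -0.28 (without LG replicate 1) to 10.15 (without LG replicate 2) for Amy1. The cause of these changes was not tested. Weak spots limit every value near background, most of all on the LG arrays.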

Other observations

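Neural markers, which the report does not describe, had 6 of 18 genes higher in LG (33.3%, against 22.4% of all genes), 4 of them below background in both glands. Lower in LG were 5 (27.8%, against 33.2%). On probes above background on all 5 arrays, 2 were higher and 0 lower. Th, the first enzyme of catecholamine synthesis, had 1.17 and 0.46 in LG, against -0.32, 0.33 and -1.12 in HG, and its call (1.18 ± 0.42; limma, adjusted p = 0.0222) was lost without LG replicate 1 (0.83, adjusted p = 0.21) or HG replicate 3 (0.81, adjusted p = 0.11). Chat, which makes acetylcholine, was called lower in LG (-2.45 ± 0.68), where it was not well above background (at least 2.29-fold lower), and the call was lost without LG replicate 2 (-1.79, adjusted p = 0.089; limma).

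S100b, a calcium-binding protein of glia, had -2.22 and -2.81 in LG, against 3.15, 3.24 and 3.38 in HG (-5.77 ± 0.45; limma, adjusted p = 4.75e-09), whereas Mbp, the myelin basic protein, did not pass the test (0.55). Cox8b, a respiratory subunit of brown fat and muscle, had -1.42 and -2.39 in LG, against 7.63, 6.80 and 6.89 in HG, and the fat cell list as a whole had 6 of 18 lower, near the 33.2% of all genes, and 1 higher. Adipoq (0.67) and Plin1 (0.77), which define fat cells, did not pass the test. Agr2, a disulfide isomerase of mucus-secreting cells, had 8.54 and 8.96 in LG, against 1.06, -0.40 and -0.95 in HG, while the mucin gene Muc1 went the other way, at -2.02 and -3.30 in LG, against 2.89, 3.37 and 3.17 in HG. The conjunctiva and cornea list, which holds both, had 8 of 13 genes lower in LG, against 33.2% of all genes. It had 3 higher, near the 22.4% of all genes, 1 of them below background in both glands. On probes above background on all 5 arrays, 1 was lower and 2 were higher. Mbp, Adipoq and Plin1 were chosen after their values were seen.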
